A study of Mus musculus with 16 samples.

Results

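De novo lipogenesis is the making of fatty acids from acetyl-CoA, and it was described here through 10 genes that hold its core enzymes and regulators in liver: Srebf1, Mlxipl, Thrsp, Slc25a1, Acly, Acss2, Acaca, Acacb, Fasn and Me1. The genes were chosen by symbol, as the 10 rows that carry these names among the 30463 gene rows of the deposited table. All 10 had an adjusted p-value per the authors' deposited table, as did 16288 genes in all. RNA of whole liver came from C57BL/6N mice, wild type in genotype and 14 weeks old. The mice were injected at 2 weeks of age with vehicle or DEN (diethylnitrosamine, a liver carcinogen), and at 6 weeks were kept on control diet or moved to a diet with 60% fat. These treatments make 4 groups of 4 samples: CD-Vehicle, CD-DEN, HFD-Vehicle and HFD-DEN, where CD is control diet and HFD high fat diet.

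The values below come from a single comparison that the authors made and deposited. For each gene it gives the normalized count averaged over libraries, a log2 fold change, the standard error (SE) of that change, and p-values. The table leaves its 2 sides unnamed. A gene with a positive log2 fold change is therefore said to be higher on the positive side, and no diet or injection is attached to either side. Library columns are headed by codes that match no sample label, so levels per sample and depth per library are not given here, and the SE is the measure of error. Hepatocyte markers were abundant: Alb, which encodes serum albumin, had a mean normalized count of 1079857 per the authors' deposited table. In whole liver, fewer cells of a type and less RNA per cell cannot be told apart.

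In lipogenesis, citrate leaves the mitochondrion through the carrier encoded by Slc25a1, and ATP citrate lyase (Acly) splits it into cytosolic acetyl-CoA. Acetyl-CoA carboxylases (Acaca, Acacb) turn acetyl-CoA into malonyl-CoA, which fatty acid synthase (Fasn) extends to palmitate with NADPH, part of it from malic enzyme (Me1). In liver the pathway is known as a fed-state programme, driven by insulin through SREBP-1c (Srebf1) and by glucose through ChREBP (Mlxipl).

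Srebf1 and Thrsp, which both belong to the regulators, were higher on the positive side, while none of the 7 enzyme and carrier genes passed the test. In the authors' deposited table the log2 fold change was 1.41 ± 0.23 (SE) for Srebf1 and 1.69 ± 0.49 (SE) for Thrsp. Calls were made at an adjusted p-value under 0.05, which 2 of the 10 members met, both positive. Over all tested genes the share called was 6.57%, made up of 3.67% positive and 2.90% negative, and among those averaging at least 100 normalized counts it was 8.29%. At an unadjusted p below 0.05 per the authors' deposited table were 4 of 10 members (Srebf1, Thrsp, Slc25a1 and Acly), beside 19.0% of all tested genes. The members' median log2 fold change per the authors' deposited table was 0.36 and 9 of 10 were positive in sign, while over all tested genes the median was -0.0044 and 49.2% were positive.

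**Figure D1:**
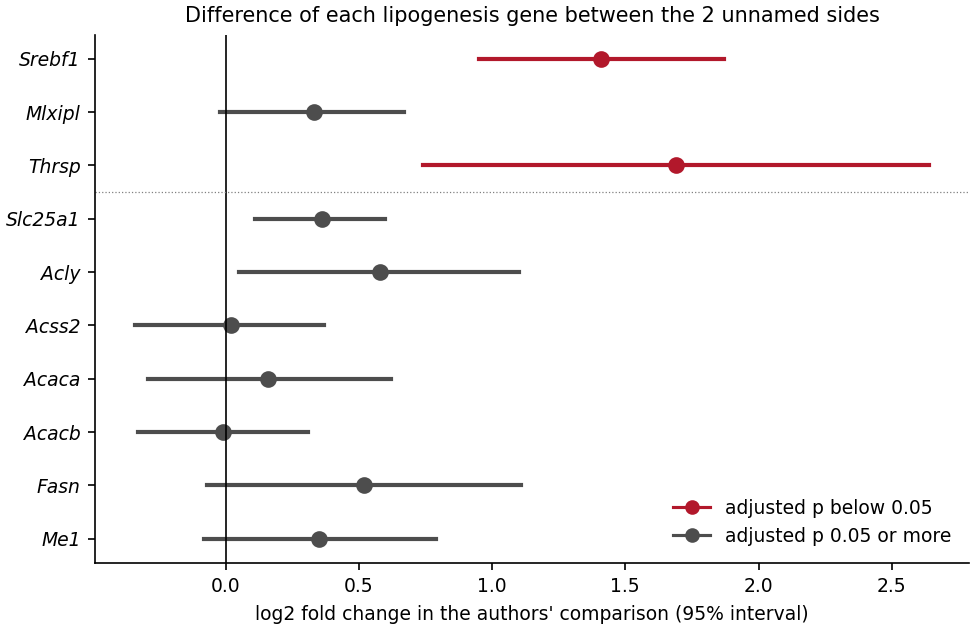
Log2 fold change (point) and its 95% interval (line) for each of the 10 genes in the authors' comparison, with the regulators above the dotted line and the carrier and enzymes below it. The intervals of Srebf1, Thrsp, Slc25a1 and Acly lie above 0, and only Srebf1 and Thrsp (red) have an adjusted p-value below 0.05.

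The stretch before the start of 3 genes is shown because all are known targets of SREBPs, while their calls differed. Srebf1 was called, Slc25a1 fell just outside the threshold and Fasn was not called. In estimate Fasn (log2 0.52 ± 0.30, SE) lay above Slc25a1 (0.36 ± 0.13) per the authors' deposited table. Each stretch is the 250 bases before an annotated start, from RefSeq on GRCm38.p6, 5′ to 3′ on the gene's own strand. None of the 3 stretches overlaps an annotated exon. For Srebf1 the start is the one furthest downstream of its 3 starts in the RefSeq table, that of SREBP-1c. Capitals mark every match within the stretch, on either strand, to CACGTG (E-box, the core of the ChREBP element), CCAAT (NF-Y box), GGGCGG (GC box), TCACCC (letters within the sterol element that SREBPs bind) and a direct repeat, GGTTA and GGTCA with 5 bases of any kind between them. The repeat was written from the element of Srebf1 that is known to bind the oxysterol receptor LXR, so its match in Srebf1 is given by construction.
Srebf1, chr11:60210472-60210721, minus strand: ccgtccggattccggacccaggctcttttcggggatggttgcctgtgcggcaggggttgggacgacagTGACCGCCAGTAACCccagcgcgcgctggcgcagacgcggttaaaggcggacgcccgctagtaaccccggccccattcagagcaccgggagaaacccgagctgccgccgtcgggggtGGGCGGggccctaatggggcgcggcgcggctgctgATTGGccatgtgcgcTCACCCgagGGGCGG
Fasn, chr11:120824548-120824797, minus strand: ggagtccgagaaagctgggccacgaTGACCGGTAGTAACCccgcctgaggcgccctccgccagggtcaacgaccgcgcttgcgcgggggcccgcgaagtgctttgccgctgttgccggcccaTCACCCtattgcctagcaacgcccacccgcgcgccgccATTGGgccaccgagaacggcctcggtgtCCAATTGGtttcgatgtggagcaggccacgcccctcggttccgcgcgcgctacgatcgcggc
Slc25a1, chr16:17928220-17928469, minus strand: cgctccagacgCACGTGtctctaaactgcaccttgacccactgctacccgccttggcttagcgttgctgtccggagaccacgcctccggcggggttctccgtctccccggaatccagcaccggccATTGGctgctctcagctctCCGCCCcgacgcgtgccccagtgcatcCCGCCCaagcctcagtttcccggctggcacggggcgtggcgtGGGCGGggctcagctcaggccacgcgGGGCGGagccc

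In these letters Srebf1 and Fasn share the direct repeat on the strand opposite to the gene, at positions -182 to -168 in Srebf1 and -225 to -211 in Fasn, counted from the start. Over the same 250 bases before each of the 32851 RefSeq starts, 15 stretches hold that repeat (0.0457%). Both also hold TCACCC, at -15 to -10 in Srebf1 and at -128 to -123 in Fasn, as do 13.8% of these stretches. Among the other members Acss2 and Me1 have TCACCC too, and neither was called. Slc25a1 holds CACGTG at -239 to -234, a motif found in 6.02% of these stretches, and among the other members only Mlxipl has it. The 10 members have 14 windows in the RefSeq table, which run on to 50 bases after the start and so are longer than the printed stretches. CCAAT was found in 10 of the 14, covering 9 genes and not Acaca, beside 37.4% of all windows, and it overlaps its own reverse match in Fasn. The only window of Acaca, chr11:84195188-84195487, lies inside the annotated gene, so the stretch before its most upstream start was not searched. GGGCGG was found in 7 of 14, beside 35.7%. Median GC content was 63.9% in the members' windows and 52.7% in all windows. These matches describe letters and say nothing of binding in these livers.

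Srebf1 encodes the sterol regulatory element binding proteins SREBP-1a and SREBP-1c, which switch on genes of fatty acid synthesis. Its mean normalized count per the authors' deposited table was 2332, and it was 2.66-fold higher on the positive side, with a 95% interval of 1.93 to 3.66. Its adjusted p per the authors' deposited table was 5.3e-07, which placed it at rank 56 of 16288 by p-value. Of all tested genes, 98.5% had a smaller absolute log2 fold change. Srebf1 (ENSMUSG00000020538) lies on chromosome 11 from 60199089 to 60222581 on the minus strand in GRCm38, and its counts pool all its starts, so the isoforms cannot be separated. Its exons share 109 bases with Rai1 on the opposite strand. Rai1 was at 0.00 ± 0.09 (log2, SE) per the authors' deposited table.

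Thrsp encodes Spot 14, a small protein of lipogenic tissues that responds to thyroid hormone. It had the largest mean normalized count of the 10 genes, 6663 per the authors' deposited table, and the widest difference, 3.23-fold with a 95% interval of 1.67 to 6.25 (adjusted p = 0.0140). The difference was wider than in 99.2% of tested genes, but its SE of 0.49 per the authors' deposited table was also the largest of the 10. From the p-values of the authors' deposited table, the call of Thrsp was lost at a threshold of 0.01 and with Benjamini-Yekutieli adjustment (adjusted p = 0.144). It was also lost when each statistic per the authors' deposited table was scaled by their median absolute deviation (adjusted p = 0.442). Thrsp (ENSMUSG00000035686) lies on chromosome 7 from 97412938 to 97417730. Adipose tissue also expresses Thrsp. Of 7 adipocyte markers in the table, Adipoq, Plin1 and Retn had mean normalized counts of 0.387, 0.439 and 0.558 per the authors' deposited table and no adjusted p. Cfd, which encodes complement factor D and is the one called marker of these 7, had a mean normalized count of 395 and was at 7.93 ± 0.69 (log2 scale, SE; adjusted p = 2.6e-26) per the authors' deposited table (244-fold). The part of Cfd and the other adipocyte markers in the Thrsp value was not tested. Fabp4 was at 0.73 ± 0.31 (log2 scale, SE; adjusted p = 0.151) per the authors' deposited table. The other tested markers, Adrb3 and Trarg1, were at -0.25 ± 0.35 and 0.02 ± 0.32 (log2, SE) per the authors' deposited table and were not called.

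Mlxipl encodes ChREBP, which responds to sugar phosphates and shares many targets with SREBP-1c. It was not called, at a log2 fold change of 0.33 ± 0.18 (SE, adjusted p = 0.305) per the authors' deposited table. The 95% interval ran from 0.985-fold to 1.59-fold, so it excludes a difference of 2-fold. Mlxipl (ENSMUSG00000005373) lies on chromosome 5 from 135089890 to 135138382. RefSeq gives it 2 starts, which the gene-level counts do not separate.

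Among the steps that supply acetyl-CoA, Slc25a1 came nearest to the threshold. The citrate carrier gene was at 0.36 ± 0.13 (log2, SE) per the authors' deposited table, or 1.28-fold with an interval of 1.08 to 1.52 (adjusted p = 0.0589). It had the smallest SE of the 10 genes. When the p-values of the authors' deposited table were adjusted only over genes averaging at least 100 normalized counts, it passed (adjusted p = 0.0473). Acly was at 0.58 ± 0.27 (log2 scale, SE; adjusted p = 0.205) per the authors' deposited table, or 1.49-fold with an interval of 1.04 to 2.15. Acss2, which makes acetyl-CoA from acetate, was at 0.02 ± 0.18 (log2, SE) per the authors' deposited table, with an interval of 0.793-fold to 1.29-fold. Its exons share 395 bases with Gss on the opposite strand, which was at 0.13 ± 0.12 (log2, SE) per the authors' deposited table and was not called. Whether Acss2 differed from Slc25a1 or Acly was not tested.

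The carboxylases showed the smallest differences apart from Acss2. Acaca, the cytosolic form that feeds Fasn, was at 0.16 ± 0.23 (log2 scale, SE; adjusted p = 0.778) per the authors' deposited table. Acacb, the form at the mitochondrial surface whose malonyl-CoA restrains fatty acid entry through Cpt1a, was at -0.01 ± 0.16 (log2 scale, SE; adjusted p = 0.984) per the authors' deposited table and was the only member below 0. The intervals ran from 0.815-fold to 1.54-fold for Acaca and from 0.796-fold to 1.24-fold for Acacb, so both exclude a doubling. Per kilobase of exonic length, the mean normalized count was 301 for Acacb and 50.3 for Acaca.

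Fasn had the second largest mean normalized count of the 10, 5405 per the authors' deposited table. It was 1.43-fold higher in estimate (log2 0.52 ± 0.30, SE; adjusted p = 0.352 per the authors' deposited table) with an interval of 0.950 to 2.15, which holds both no difference and a doubling. Me1 was at 0.35 ± 0.22 (log2 scale, SE; adjusted p = 0.393) per the authors' deposited table, or 1.28-fold with an interval of 0.948 to 1.72. The 7 enzyme and carrier genes had a median log2 fold change of 0.35 and a range of -0.01 to 0.58, from the authors' deposited table. From the same table, the 3 regulators ranged from 0.33 (Mlxipl) to 1.69 (Thrsp). Their median of 1.41 is the value of Srebf1 itself, and Mlxipl lay within the range of the enzyme and carrier genes. The intervals of 6 members (Mlxipl, Acaca, Acacb, Me1, Slc25a1 and Acss2) lay wholly below that of Srebf1, and those of Thrsp, Fasn and Acly overlapped it. This compares intervals of genes measured in the same libraries, and the differences between genes were not tested.

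**Figure D2:**
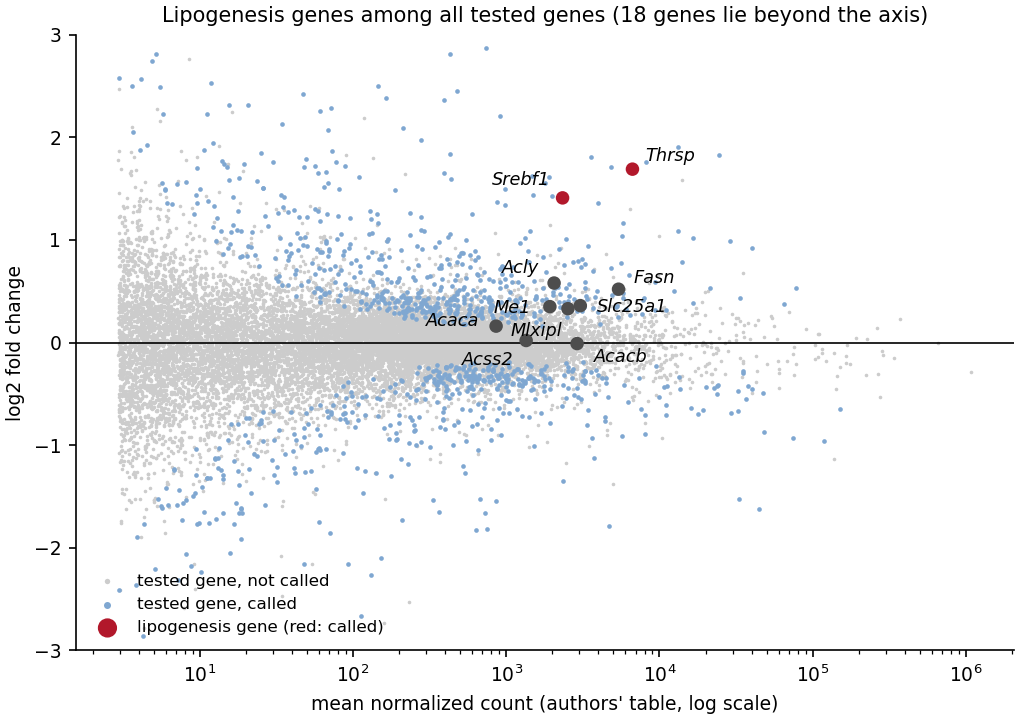
Mean normalized count (log axis) and log2 fold change of all tested genes in the authors' comparison (grey, not called; blue, called), with the 10 lipogenesis genes labelled. Srebf1 and Thrsp stand at 1.41 and 1.69, above the 8 others, which range from -0.01 to 0.58; 18 genes beyond 3 on the log2 axis are not drawn.

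The 10 genes lie on 6 chromosomes in GRCm38, with Srebf1, Acaca, Acly and Fasn on chromosome 11. There, Acaca (ENSMUSG00000020532) spans 84129672 to 84401651, Acly (ENSMUSG00000020917) 100476353 to 100528000 and Fasn (ENSMUSG00000025153) 120805846 to 120824547. Slc25a1 (ENSMUSG00000003528) lies on chromosome 16 from 17925223 to 17928219, Acacb (ENSMUSG00000042010) on chromosome 5 from 114146535 to 114250761, Me1 (ENSMUSG00000032418) on chromosome 9 from 86581371 to 86695953 and Acss2 (ENSMUSG00000027605) on chromosome 2 from 155517948 to 155585724.

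The lipogenesis genes were abundant, with mean normalized counts of 859 (Acaca) to 6663 (Thrsp) per the authors' deposited table, while the median of all tested genes was 164. Per kilobase of exonic length the order changed. Thrsp came first at 3044, followed by Slc25a1 at 1406. Me1 (501), Fasn (494), Mlxipl (457), Srebf1 (414) and Acly (389) lay close together on this scale. Acacb (301), Acss2 (133) and Acaca (50.3) came last. The length is that of all annotated exons of a gene merged, 17074 bases for Acaca and 2164 for Slc25a1. It lowers genes with many alternative exons, and levels without a spread per sample do not show which neighbours differ.

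**Figure D3:**
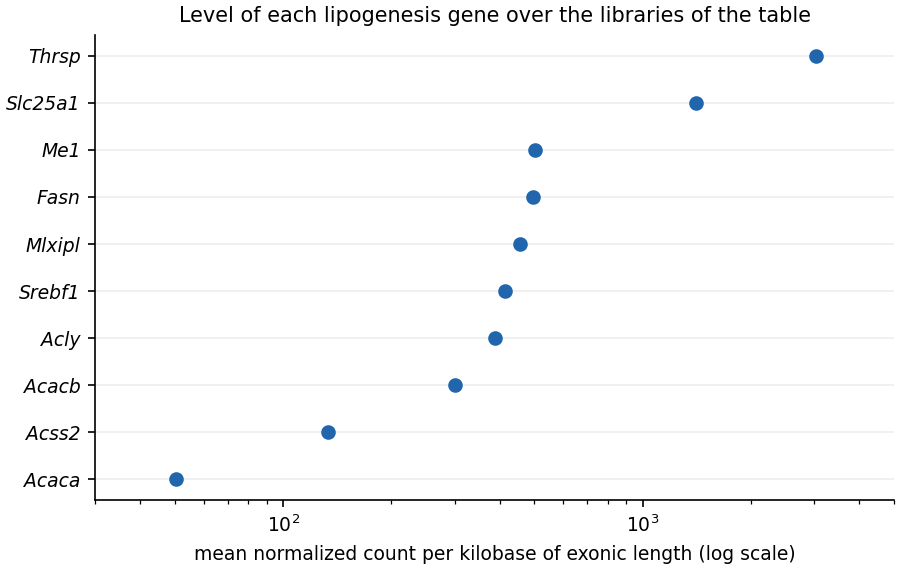
Mean normalized count of the authors' table divided by the merged exonic length in kilobases (log axis), 1 point per gene. Thrsp and Slc25a1 lead at 3044 and 1406, Acaca is lowest at 50.3, and no error can be drawn because the mean carries none.

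For their abundance, most of these genes had a large SE of the log2 fold change. Spread between libraries and error of measurement cannot be told apart in it. Genes whose mean normalized count lay within 2-fold of that of a member had a median SE of 0.11 to 0.14 per the authors' deposited table. Against those genes, the SE of Thrsp was larger than that of 98.1%, the SE of Acly than 96.2%, and the SEs of Fasn and Acaca than 93.9% each. For Srebf1 the figure was 93.2%, for Me1 92.2%, for Acss2 86.1%, for Mlxipl 81.6% and for Acacb 74.9%. Slc25a1 stood in the middle at 54.3%. A gene was called where its log2 fold change was at least 2.94 times its SE, so each gene had its own limit. Slc25a1 needed a 1.29-fold difference, Acacb 1.39-fold, Fasn 1.85-fold and Thrsp 2.69-fold.

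**Figure D4:**
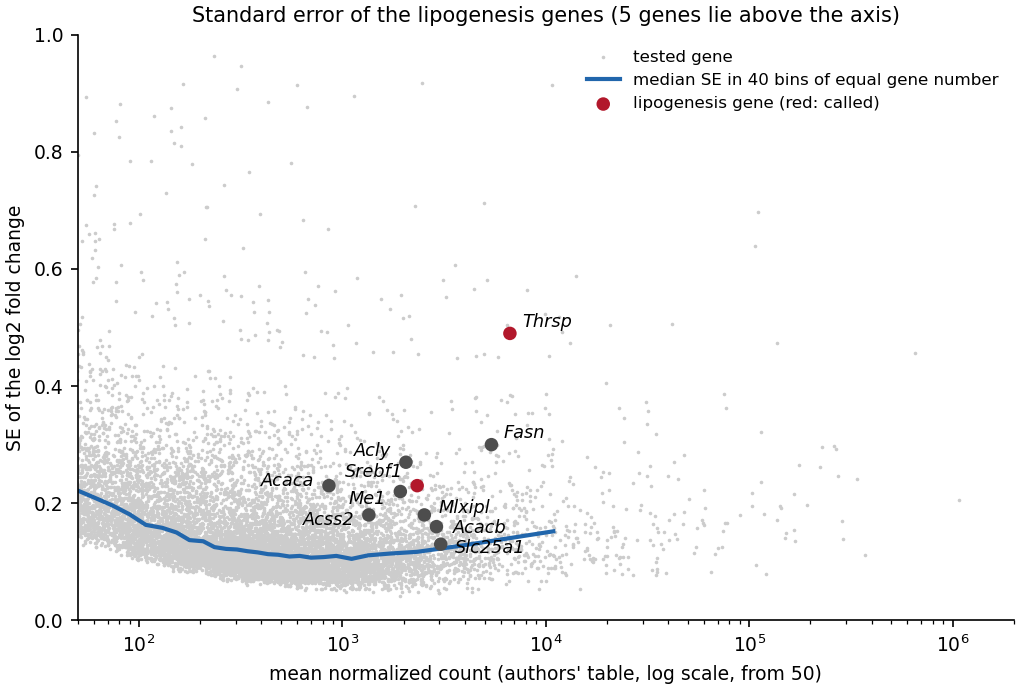
Mean normalized count (log axis, from 50) and SE of the log2 fold change for tested genes (grey) and the 10 lipogenesis genes (labelled; red, called), with the median SE in 40 bins of equal gene number (blue line). Slc25a1 sits near the line at 0.13 and Thrsp far above it at 0.49; 5 genes with an SE above 1 are not drawn.

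Genes around the pathway were taken from 12 lists with 114 genes, of which 113 were tested. Of these, 10 were called positive and 6 negative, or 14.2%, with a median log2 fold change of 0.09 per the authors' deposited table. The share over all tested genes was 6.57%, and 8.29% among those averaging at least 100 normalized counts. The lists were chosen with earlier results of these data known, and their counts describe them without a test of the list. Of the 16 calls, 3 remained with Benjamini-Yekutieli adjustment and 2 with scaled statistics (Pck1 and Ppargc1a in both, Dio1 in the former).

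Genes of the steps after palmitate were mixed in sign. Of 11 genes of desaturation, elongation and esterification, 1 was called positive, 0 negative, and 6 were positive in sign (median 0.08). Gpam, the mitochondrial acyltransferase that starts triglyceride synthesis, was at 0.57 ± 0.18 (log2 scale, SE; adjusted p = 0.0241) per the authors' deposited table. Scd1, the stearoyl-CoA desaturase and a known SREBP-1c target, was at -1.14 ± 0.47 (log2 scale, SE; adjusted p = 0.136) per the authors' deposited table. Elovl6, which elongates palmitate, was at -0.30 ± 0.30 (log2 scale, SE; adjusted p = 0.639) per the authors' deposited table.

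The members' paralogs split. Of 7 tested, 1 was called positive and 1 negative (median 0.00). Mid1ip1, a paralog of Thrsp that aids polymerization of acetyl-CoA carboxylase, was at 0.73 ± 0.22 (log2 scale, SE; adjusted p = 0.0184) per the authors' deposited table. Me2, the mitochondrial malic enzyme, was at -0.73 ± 0.22 (log2 scale, SE; adjusted p = 0.0195) per the authors' deposited table. Srebf2, the paralog of Srebf1 that governs cholesterol synthesis, was at 0.00 ± 0.13 (log2 scale, SE; adjusted p = 0.998) per the authors' deposited table.

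Of 22 genes that act on Srebf1, taken from 2 lists, 1 was called (4.55%), near the 6.57% of all tested genes. At an unadjusted p below 0.05 per the authors' deposited table were 8 of the 22, beside 19.0% of all tested genes. Of 8 genes of SREBP processing and turnover, 0 were called (median -0.06), beside 2 at an unadjusted p below 0.05. These were Insig1, which holds SREBPs in the endoplasmic reticulum, at 0.52 ± 0.25 (log2 scale, SE; adjusted p = 0.215), and the site-2 protease gene Mbtps2, at -0.22 ± 0.09 (log2 scale, SE; adjusted p = 0.0948), per the authors' deposited table. Of 14 LXR, insulin and mTOR inputs, 0 were called positive and 1 negative (median -0.15). At an unadjusted p below 0.05 were 6 of the 14, all negative in sign. The called gene was the insulin receptor Insr, at -0.38 ± 0.12 (log2 scale, SE; adjusted p = 0.0378) per the authors' deposited table. Nr1h3, which encodes LXR alpha, was at 0.02 ± 0.09 (log2 scale, SE; adjusted p = 0.940) per the authors' deposited table. Of 6 other LXR target genes, 0 were called (median -0.24), beside 1 at an unadjusted p below 0.05. That gene, Mylip, which marks the LDL receptor for breakdown, was at -0.63 ± 0.24 (log2 scale, SE; adjusted p = 0.0896) per the authors' deposited table.

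Among 11 targets of ChREBP the median was 0.45, 8 were positive in sign, and 1 was called negative. Tm6sf2, which acts in lipoprotein lipidation, was at -0.77 ± 0.26 (log2 scale, SE; adjusted p = 0.0494) per the authors' deposited table. Pklr, the liver pyruvate kinase, was at 0.72 ± 0.29 (log2 scale, SE; adjusted p = 0.128) per the authors' deposited table. In the cholesterol branch 17 of 18 genes were positive in sign (median 0.53), and 1 was called, the farnesyl diphosphate synthase gene Fdps at 0.90 ± 0.31 (log2 scale, SE; adjusted p = 0.0496) per the authors' deposited table.

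Supply of citrate and NADPH gave 1 positive call each. Cs, the citrate synthase gene, was at 0.33 ± 0.11 (log2 scale, SE; adjusted p = 0.0386) per the authors' deposited table, within a list of 12 where 11 were positive in sign (median 0.15). Idh1, a cytosolic NADPH producer, was at 0.33 ± 0.09 (log2 scale, SE; adjusted p = 0.0111) per the authors' deposited table, within a list of 6 where 2 were positive in sign (median -0.14). In that list G6pdx was at -0.71 ± 0.26 and Aldh1l1 at -0.31 ± 0.11 (log2 scale, SE, adjusted p = 0.0729 and 0.0725) per the authors' deposited table. Among 8 AMPK and malonyl-CoA genes, Prkab2 was called positive at 1.06 ± 0.32 and Prkab1 negative at -0.26 ± 0.08 (log2 scale, SE; adjusted p = 0.0245 and 0.0226) per the authors' deposited table. These genes encode the beta subunits of AMPK, the kinase that inhibits the carboxylases. Cpt1a was at -0.34 ± 0.13 (log2 scale, SE; adjusted p = 0.0834) per the authors' deposited table.

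Of 5 thyroid hormone receptor and target genes, a list taken because Thrsp responds to that hormone, 2 were called positive and 0 negative (median -0.05). Dio1, the deiodinase that activates thyroid hormone, was at 0.69 ± 0.16 (log2 scale, SE; adjusted p = 0.00153) and the glycerophosphate dehydrogenase gene Gpd2 at 0.60 ± 0.19 (log2 scale, SE; adjusted p = 0.0326) per the authors' deposited table. The receptor genes Thra and Thrb were at -0.08 ± 0.16 and -0.05 ± 0.12 (log2, SE) per the authors' deposited table and were not called. Klf9, the remaining target of the list, was negative at -0.41 ± 0.15 (log2 scale, SE, adjusted p = 0.0740) per the authors' deposited table. Of 7 genes raised by fasting, 1 was called positive and 2 negative (median -0.18). Pck1, of gluconeogenesis, was at -1.62 ± 0.24 and its coactivator gene Ppargc1a at -1.30 ± 0.22 (log2 scale, SE; adjusted p = 1.2e-08 and 5.9e-07), while the hormone gene Fgf21 was at 1.21 ± 0.39 (log2 scale, SE; adjusted p = 0.0332), per the authors' deposited table.

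**Figure D5:**
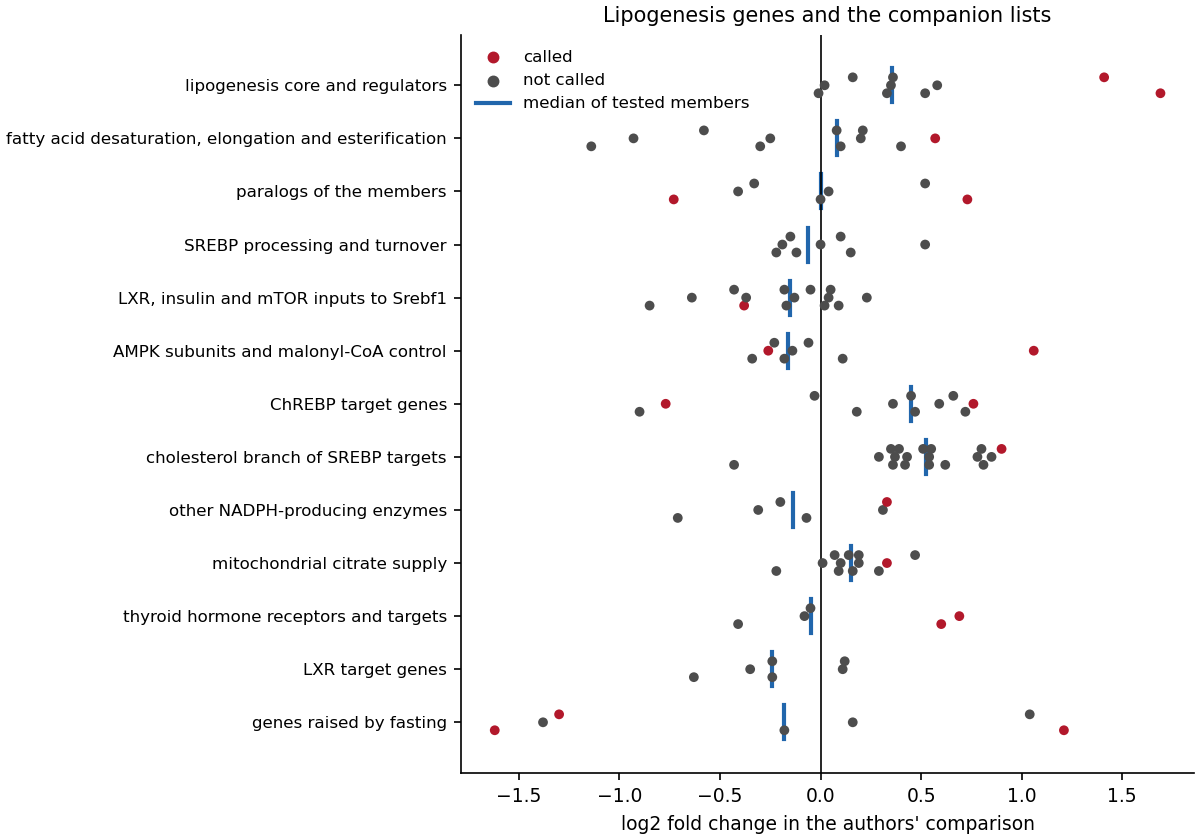
Log2 fold change of each tested gene of the lipogenesis set and of the 12 companion lists in the authors' comparison (red, called; grey, not called; blue bar, median of the list). The cholesterol branch and the ChREBP targets have medians of 0.53 and 0.45, and Srebf1 and Thrsp lie furthest right in the plot.

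Markers of other liver cells were read beside these genes. Of 8 hepatocyte markers in the table, 7 had a negative sign (median -0.26) and 1 was called, Ahsg at -0.64 ± 0.14 (log2 scale, SE; adjusted p = 3.7e-04) per the authors' deposited table. All 6 Kupffer cell markers (median -0.62) and all 6 sinusoidal endothelial markers (median -0.41) were negative in sign, with 1 Kupffer marker called and 4 of the 6 at an unadjusted p below 0.05 per the authors' deposited table. The called marker was Timd4, at -0.76 ± 0.26 (log2 scale, SE; adjusted p = 0.0494) per the authors' deposited table. None of the endothelial markers was called, and 2 (Lyve1 and Kdr) had an unadjusted p below 0.05 per the authors' deposited table. Over all tested genes, 6.57% were called and 19.0% had an unadjusted p below 0.05, from the same table. No stellate, cholangiocyte, lymphocyte, neutrophil or erythroid marker was called by the authors' adjusted p, and 2 lymphocyte markers had an unadjusted p below 0.05. The part of these markers in the lipogenesis values was not tested.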

How the data were processed

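Liver RNA went into stranded mRNA libraries, per the labels' protocols. The submitters' processing notes list FastQC, Trimmomatic, HISAT2, HTSeq 0.11.1 and build GRCm38, without roles, and the use of strand in counting is not given there. Per the file headers, the authors deposited a mean normalized count (a signal), a log2 fold change with its SE (log2 scale), a test statistic (a score), a p-value and an adjusted p-value. No header or label names the tool, model, samples or sides. The 16 library columns match no label and were not used, so the comparisons of diet and DEN planned with counts were not run, and depth per sample is not given. Checked on the values, the statistic is the fold change over its SE, the p-value its 2-sided normal p, and the adjusted p its Benjamini-Hochberg value over 16288 genes. Intervals are 95% normal intervals from the deposited SE. Whether replicates were separate animals is not stated beyond the labels.

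Members and gene lists were chosen with earlier results of these data known. Genes named are the 10 members, up to 4 called genes per list (or, with none called, the gene with the smallest p), and a panel of 9 fixed in the design. No gene was named from the stellate, cholangiocyte, lymphocyte, neutrophil and erythroid lists, where none was called. Genes overlapping a member, Alb, Fabp4, Adipoq, Plin1, Retn, Thra and Thrb were named in addition, after their values were seen. So were Adrb3, Trarg1, Klf9, G6pdx, Aldh1l1, Kdr, Lpin1, Igfbp1 and Cyp4a14. Of the cell type lists, those of gut, pancreas and muscle had 1 tested gene, Cela1, which was not called. Lep, Tf and Myh4 had no row under these symbols. A called gene of the companion lists is counted in their total but not reported here. Exonic lengths and positions are from GENCODE M21 on GRCm38, matched by identifier for 99.7% of genes. All 10 members matched the RefSeq promoter table by symbol. The motifs were chosen with the sequences in view. Python 3.11.15, pandas 2.3.3 and scipy 1.17.1 were used, and the adjustment and interval steps were checked before use. Alternatives were other thresholds, adjustments, count minimums, a scaled statistic and centred fold changes.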

Additional observations from a re-analysis of the deposited data

How the results depend on the processing

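The call of Srebf1 held in each of 8 alternatives. They say nothing of direction, since only centring can turn a sign and its shift of -0.0016 is smaller than any member's value. The number of members called was 1 instead of 2 (Srebf1 without Thrsp) at a threshold of 0.01, with Benjamini-Yekutieli adjustment, and with statistics divided by their median absolute deviation of 1.44. It was 3 with Slc25a1 added, at a threshold of 0.10 or with p-values adjusted only over genes averaging at least 100 normalized counts. Companion genes called, 16 of 113, became 25 at 0.10, 3 at 0.01, 10 with p-values adjusted over every gene with a p-value, 3 with Benjamini-Yekutieli adjustment and 2 with the scaled statistic, which were Pck1 and Ppargc1a. Over all genes the 1070 calls became 1588 (9.75%) at 0.10, 847 of 9315 (9.09%) with adjustment over genes averaging at least 100, 491 at 0.01, 389 with Benjamini-Yekutieli adjustment and 142 with the scaled statistic. These settings are stricter or wider by construction. No paired analysis was possible because the library columns carry no sample label or replicate number. For the same reason no replicate could be left out, and no other normalization or filter on counts per library could be run. The count minimums used were on the deposited mean. The limit of the data is the SE of each gene and the unnamed sides.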

Other observations

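Within the span of Acaca, the gene Gm11437 (ENSMUSG00000051452, chromosome 11 from 84148351 to 84167476, GRCm38) lies on the opposite strand and shares 0 exonic bases with it. Gm11437 had a mean normalized count of 59.0 and a log2 fold change of -1.03 ± 0.18 (SE, adjusted p = 4.3e-06) per the authors' deposited table, where Acaca itself was at 0.16 ± 0.23. It was singled out after its values were seen. Of the 15 genes annotated as overlapping a member, 5 had an adjusted p, and Gm11437 was the only one of these below 0.05.

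Lpin1, which encodes a phosphatidate phosphatase of triglyceride synthesis, was at -0.93 ± 0.35 (log2 scale, SE; adjusted p = 0.0915) per the authors' deposited table, on the same side as Scd1 and opposite in sign to Gpam. Igfbp1, a gene that insulin lowers in liver, was at -1.38 ± 0.71 (log2 scale, SE, adjusted p = 0.272) per the authors' deposited table. It belongs to the 7 genes raised by fasting, of which 3 were positive in sign. Cyp4a14, of the same list, was at 1.04 ± 0.39 (log2 scale, SE, adjusted p = 0.0825) per the authors' deposited table. Lpin1, Igfbp1 and Cyp4a14 were named after their values were seen, and none was called.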
